A study of Mus musculus with 4 samples.

Results

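The high mobility group (HMG) genes, which encode abundant non-histone proteins of chromatin, were examined in sorted intestinal stem cells. The members were the rows of the deposited table with the symbols Hmgn1, Hmgn2, Hmgn3, Hmgn5, Hmgb1, Hmgb2, Hmgb3 and Hmga1, so 8 of 18436 genes were taken, by name and not by their values. RNA had been sequenced from Lgr5-GFP high cells of 2 control mice (Lgr5-CREPTWT) and 2 mice with deleted CREPT (Lgr5-CREPTKO), all of the C57BL/6 strain. The control mice carried only Lgr5-GFP-CreERT2, which puts GFP and a tamoxifen-inducible Cre under the Lgr5 gene, and the others carried it together with CREPT fl/fl. Every mouse, control mice included, received daily tamoxifen by injection before the sort. Cre was thus limited to cells that express Lgr5, and both genotypes were Cre-positive. The study used young adult mice of both sexes, and the age and sex of each of these 4 mice were not stated separately. Each library was 1 mouse, and nothing states whether mice of one genotype shared a litter.

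HMG proteins fall into families by the way they bind chromatin. HMGN proteins bind nucleosomes and compete with linker histone H1. HMGB proteins bend DNA through HMG-box domains, and HMGA proteins bind the minor groove of AT-rich DNA through AT hooks. Several of them are abundant in dividing and undifferentiated cells, and HMGB2 and HMGA1 in particular are known from proliferating tissue, the intestinal crypt among them.

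Levels are given as FPKM, a fragment count scaled to transcript length and to the mapped total of the library, which allows genes of different length to be compared. The sum of FPKM was between 468830 and 499327 in the 4 libraries, lower in both Lgr5-CREPTKO mice, and the values across genes correlated between mice of a genotype (r = 0.983 and 0.977 on the log2 scale). The table gives no read counts, so the depth behind a value is unknown. Differences between genotypes were tested with limma's moderated test on log2(FPKM + 0.5) over the 12621 genes whose mean reached 0.5 FPKM, and all 8 members passed this filter. Such p-values use a spread that limma takes partly from the 2 mice of each genotype and partly from genes of similar level. Rprd1b, which encodes CREPT, was 17.7 and 18.1 FPKM in the Lgr5-CREPTWT mice and 6.65 and 7.36 FPKM in the Lgr5-CREPTKO mice. The stem cell genes of the sorted population were present at high level in every library, with Olfm4 between 4932 and 5351 FPKM.

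Hmgn2 and Hmgn3 were lower in Lgr5-CREPTKO cells past the threshold, and Hmga1, the most abundant member, showed no difference that the test could detect. At an adjusted p below 0.05, 2 of the 8 members were lower and 0 were higher, where 2.67% of all genes tested were lower and 0.412% were higher (337 and 52 genes). After rescaling every library to the same sum, the counts over all genes were 243 lower and 85 higher. Without adjustment, at p below 0.05, the same test gave 5 members lower and 0 higher, where 15.2% of all genes tested were lower and 9.27% were higher (1916 and 1170 genes). After the same rescaling, 3 members were lower and 0 higher without adjustment, and over all genes 1409 were lower and 1960 higher. In 7 of the 8 members both Lgr5-CREPTKO values were below both Lgr5-CREPTWT values, a pattern found in 31.0% of all genes tested, and 0 members had both values above, a pattern found in 25.6%. These patterns were read on FPKM as deposited, whose sum was lower in both Lgr5-CREPTKO mice. Rescaling the libraries can change them where a difference is small. The median log2 fold change was -0.24 over the members and -0.014 over all genes tested. The members were proposed with earlier results of these data in view, and these counts describe them without testing them as a group. In RNA from sorted cells, fewer cells of a type and less RNA per cell cannot be told apart.

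**Figure D1:**
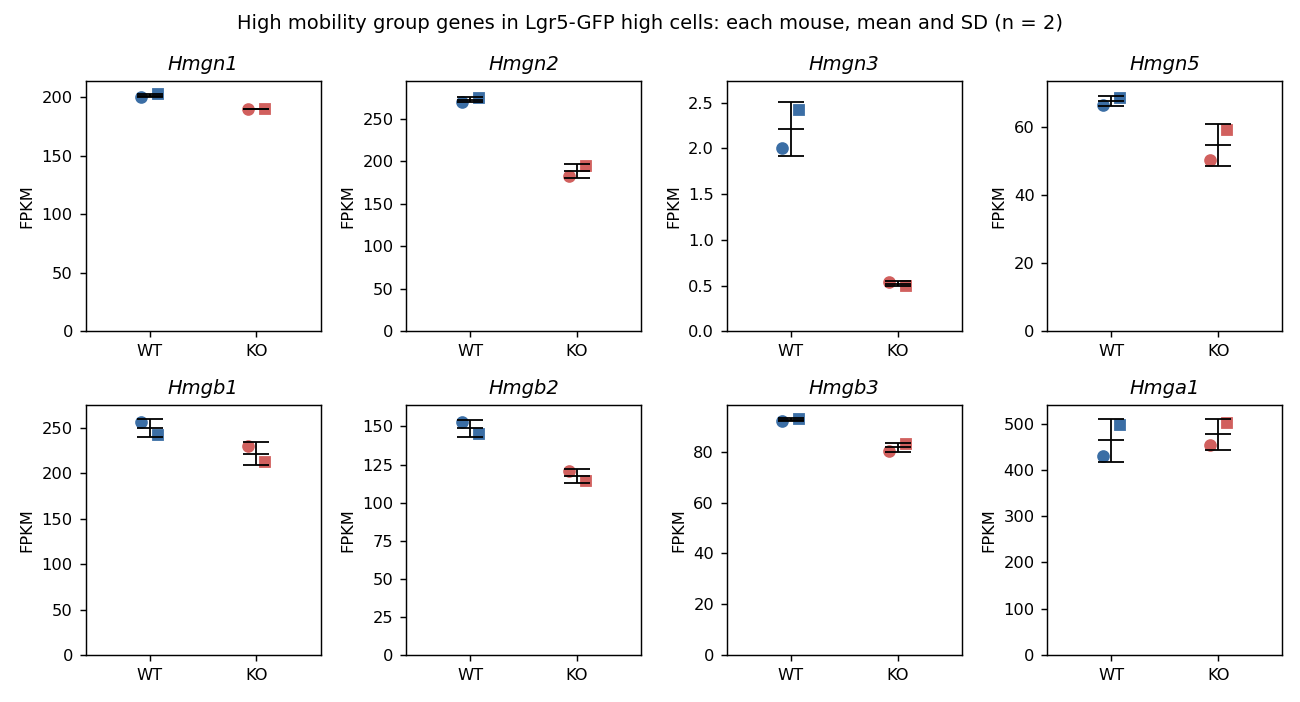
FPKM (y axis, linear, from 0) of each member in the Lgr5-CREPTWT (blue) and Lgr5-CREPTKO (red) mice, circles for mouse 1 and squares for mouse 2, with the mean and SD of each genotype in black (n = 2). On these values as deposited, the genotypes are apart in 7 panels, and in the panel of Hmga1 they overlap.

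Of the nucleosome-binding family, Hmgn2 was the most abundant in control cells. Its gene spans chr4:133964739-133967991 (GRCm38.p6, the build of all positions given here), minus strand. Hmgn2 was 270.2 and 274.8 FPKM in the Lgr5-CREPTWT mice and 183.2 and 194.4 FPKM in the Lgr5-CREPTKO mice. Both mice of a genotype were close to each other, and the genotypes were far apart. The level in Lgr5-CREPTKO cells was 0.693 of that in Lgr5-CREPTWT cells, a log2 fold change of -0.53 with a standard error of 0.0695 and a 95% interval from -0.71 to -0.35 (adjusted p = 0.0376, limma). The study shows Hmgn2 among its cell cycle genes, and how those were picked is not stated. The call was lost in 9 of 15 alternative settings, among them quantile normalisation (adjusted p = 0.0529) and the removal of any one mouse (adjusted p from 0.137 to 0.296). After each library was corrected for trends in transcript length and GC content, a setting chosen after seeing the data, the log2 fold change shrank to -0.33 (adjusted p = 0.0697).

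Hmgn1 encodes the other of the best-studied HMGN proteins and spans chr16:96121588-96127725. It was 200.2 and 202.5 FPKM in the Lgr5-CREPTWT mice and 189.7 and 190.1 FPKM in the Lgr5-CREPTKO mice. Its values as deposited did not overlap between genotypes, but the difference was small, a log2 fold change of -0.084 with an interval from -0.25 to 0.08 (adjusted p = 0.466, limma). After rescaling every library to the same sum, the log2 fold change was -0.0061. Hmgn2 exceeded Hmgn1 in both control mice and was level with it in the others. Within a mouse, the ratio of Hmgn1 to Hmgn2 was 0.741 and 0.737 in the Lgr5-CREPTWT mice and 1.04 and 0.978 in the Lgr5-CREPTKO mice. A ratio within a library does not depend on a single factor that scales the whole library. A correction by gene can change it. After the length and GC correction the log2 fold change was -0.0034 for Hmgn1 and -0.33 for Hmgn2. An exact two-sided permutation test of 2 against 2 mice cannot give a p below 0.333, and this ratio reached that value (0.375 when adjusted over the 9 ratios computed within the HMGN and HMGB families). All of those 9 ratios except Hmgb1 to Hmgb3 reached 0.333, so the test does not set this ratio apart.

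The stretches of 250 bases before the transcription start of both genes are shown because they set Hmgn2, the member past the threshold that has a promoter entry, beside the HMGN gene with the smallest difference, as RefSeq gives them on GRCm38.p6. Capitals mark CCAAT, the motif of the factor NF-Y, on either strand. The Hmgn2 stretch is chr4:133967992-133968241 and the Hmgn1 stretch is chr16:96127726-96127975, both on the minus strand.
Hmgn2: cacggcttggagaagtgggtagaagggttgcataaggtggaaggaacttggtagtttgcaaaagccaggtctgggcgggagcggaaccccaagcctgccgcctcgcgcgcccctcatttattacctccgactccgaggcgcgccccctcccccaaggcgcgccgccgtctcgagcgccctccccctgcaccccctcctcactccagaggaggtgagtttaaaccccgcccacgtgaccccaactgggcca
Hmgn1: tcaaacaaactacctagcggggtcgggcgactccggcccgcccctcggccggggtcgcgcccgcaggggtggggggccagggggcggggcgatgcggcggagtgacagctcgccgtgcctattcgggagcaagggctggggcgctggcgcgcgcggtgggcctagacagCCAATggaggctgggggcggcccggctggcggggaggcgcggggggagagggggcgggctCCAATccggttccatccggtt
The Hmgn2 stretch holds no complete match, since the only CCAAT of its window begins at position -3 and runs across the start. The Hmgn1 stretch holds matches that begin at -81 and -21, counted from the start.

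Hmgn3 lies on chromosome 9 from 83109942 to 83147358 and encodes an HMGN protein known from endocrine cells, among them those of the pancreatic islets. It was the scarcest member by far. Hmgn3 was 2.00 and 2.42 FPKM in the Lgr5-CREPTWT mice and 0.54 and 0.50 FPKM in the Lgr5-CREPTKO mice. The level in Lgr5-CREPTKO cells was 0.235 of that in Lgr5-CREPTWT cells, the largest relative change among the members. Its log2 fold change was -1.41 with a standard error of 0.201 and an interval from -1.92 to -0.89 (adjusted p = 0.0423, limma). At this level the value added before the logarithm counts, and with 0.1 in place of 0.5 the log2 fold change was -1.89. Of the 14 alternative settings that could test Hmgn3, 8 lost the call, including the removal of any one mouse (adjusted p from 0.154 to 0.296), and the log2 fold change stayed between -1.89 and -1.08. The transcripts of Hmgn3 shared none of their 50-base words with another gene in GENCODE M21 (0.0%), but its exons overlap those of Gm2065 and Gm29054 on the opposite strand, and whether the counting used strand is not given in the sources used here.

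Many genes of enteroendocrine cells, the hormone-producing cells of the epithelium, were also lower in Lgr5-CREPTKO cells. Of 20 enteroendocrine genes listed, 18 were tested, 7 were lower at an adjusted p below 0.05 and 0 were higher (17 and 0 unadjusted), and the median log2 fold change was -1.37. Their summed level was 254.8 and 373.2 FPKM in the Lgr5-CREPTWT mice and 82.8 and 93.9 FPKM in the Lgr5-CREPTKO mice, and 0 of the 20 were at zero throughout. Chgb, which encodes a granule protein, was 64.7 and 59.3 FPKM in the Lgr5-CREPTWT mice and 22.9 and 31.9 FPKM in the Lgr5-CREPTKO mice (log2 fold change -1.18, adjusted p = 0.0423, limma). Neurod1, a transcription factor of this lineage, was 5.0 and 6.39 against 1.78 and 1.42 FPKM (log2 fold change -1.56, adjusted p = 0.0336, limma). The other 5 genes past the threshold were Cck, Ghrl, Tac1, Cpe and Pax4, with log2 fold changes from -3.50 to -1.65. The 10 goblet cell genes summed to 1484 and 2475 FPKM in the Lgr5-CREPTWT mice and 816.9 and 946.6 FPKM in the Lgr5-CREPTKO mice, with 2 lower past the threshold (Spink4 and Ern2) and 0 higher (7 and 0 unadjusted). The 8 tuft cell genes tested were all lower in mean, with 0 past the threshold in either direction (4 lower and 0 higher unadjusted). Whether the share of such cells had a part in the level of Hmgn3 was not tested.

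Hmgn5, an X-linked HMGN gene whose protein has a long acidic tail, lies on chromosome X from 109004537 to 109013380. It was 66.5 and 68.6 FPKM in the Lgr5-CREPTWT mice and 50.3 and 59.1 FPKM in the Lgr5-CREPTKO mice. The Lgr5-CREPTKO mice differed from each other more than the control mice did. The log2 fold change was -0.31 with an interval from -0.56 to -0.05, and it did not pass after adjustment (adjusted p = 0.148, limma). Summed over the 4 HMGN genes, the level was 543.6 ± 6.58 FPKM in Lgr5-CREPTWT cells and 433.9 ± 14.4 FPKM in Lgr5-CREPTKO cells (SD, n = 2), and Hmgn2 made up 83.7 FPKM of that difference.

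**Figure D2:**
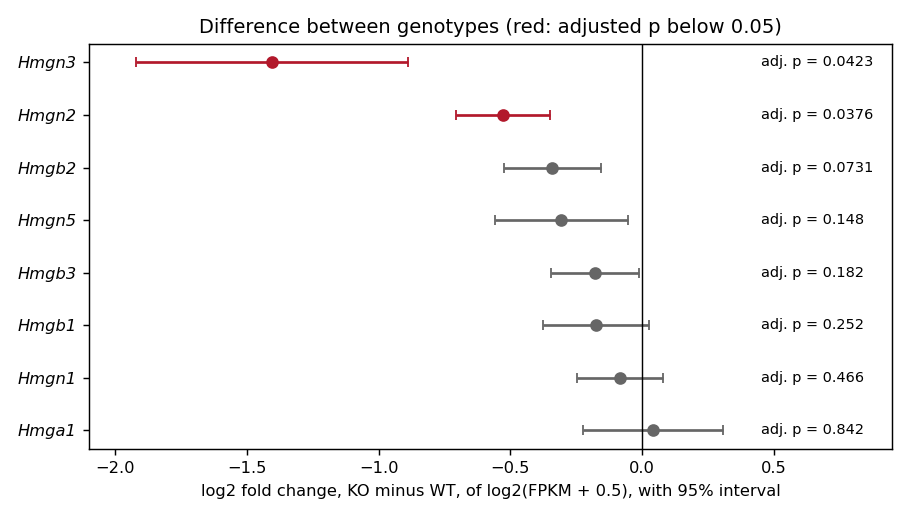
Log2 fold change of each member (x axis, Lgr5-CREPTKO minus Lgr5-CREPTWT on the log2(FPKM + 0.5) scale) with its 95% interval from limma and the adjusted p at the right. Hmgn3 and Hmgn2, in red, have an adjusted p below 0.05, and the intervals of Hmgb1, Hmgn1 and Hmga1 include 0.

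Of the HMGB family, 0 of 3 members passed the threshold (2 lower and 0 higher by limma without adjustment, where 15.2% and 9.27% of all genes were). Hmgb2, on chromosome 8 from 57511843 to 57515999, encodes the family member most tied to dividing cells. It was 152.8 and 145.0 FPKM in the Lgr5-CREPTWT mice and 120.6 and 114.4 FPKM in the Lgr5-CREPTKO mice, and the genotypes did not overlap. Its log2 fold change was -0.34 with a standard error of 0.0713 and an interval from -0.52 to -0.16, and it stayed short of the threshold (adjusted p = 0.0731, limma). The unadjusted p was 0.00499. It did not pass under any of the 15 alternative settings, with adjusted p from 0.0626 to 0.308. The length and GC correction reduced its log2 fold change to -0.18.

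The 250 bases before the start of Hmgb2, chr8:57511593-57511842 on the plus strand, are shown because they hold the most CCAAT matches of the 7 members with a promoter entry, with capitals as before.
Hmgb2: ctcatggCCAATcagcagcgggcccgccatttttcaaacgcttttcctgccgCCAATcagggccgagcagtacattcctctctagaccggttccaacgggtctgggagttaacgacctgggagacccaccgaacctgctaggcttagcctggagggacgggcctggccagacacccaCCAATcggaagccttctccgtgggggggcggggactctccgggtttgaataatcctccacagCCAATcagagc
The 4 matches begin at positions -243, -198, -73 and -11.

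Hmgb1, the most abundant HMG-box gene, lies on chromosome 5 from 149046702 to 149053057 and encodes a nuclear protein that can also act outside the cell as an alarm signal. It was 257.1 and 242.8 FPKM in the Lgr5-CREPTWT mice and 230.5 and 212.6 FPKM in the Lgr5-CREPTKO mice. On FPKM as deposited the genotypes did not overlap, although the gap between them was smaller than that between mice of a genotype. Its log2 fold change was -0.17 with an interval from -0.38 to 0.03 (adjusted p = 0.252, limma). After rescaling every library to the same sum, it was -0.096. Hmgb3, on chromosome X from 71555917 to 71560673, is known from blood progenitor cells. Hmgb3 was 92.3 and 93.2 FPKM in the Lgr5-CREPTWT mice and 80.6 and 83.2 FPKM in the Lgr5-CREPTKO mice, with a log2 fold change of -0.18 and an interval from -0.35 to -0.01 (adjusted p = 0.182, limma). Values of Hmgb3 were tight within each genotype, so the small difference was larger than its spread, but it did not pass over all genes.

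Ratios between HMGB genes within a mouse moved less than that of Hmgn1 to Hmgn2, a difference that was not tested. The ratio of Hmgb1 to Hmgb2 was 1.68 and 1.67 in the Lgr5-CREPTWT mice and 1.91 and 1.86 in the Lgr5-CREPTKO mice. That of Hmgb1 to Hmgb3 was 2.78 and 2.61 against 2.86 and 2.56, so it overlapped. By the exact two-sided permutation test these gave p = 0.333 and p = 1 (adjusted over 9 ratios, 0.375 and 1). The HMG-box genes together summed to 491.6 ± 15.1 FPKM in Lgr5-CREPTWT cells and 420.9 ± 15.2 FPKM in Lgr5-CREPTKO cells (SD, n = 2).

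**Figure D3:**
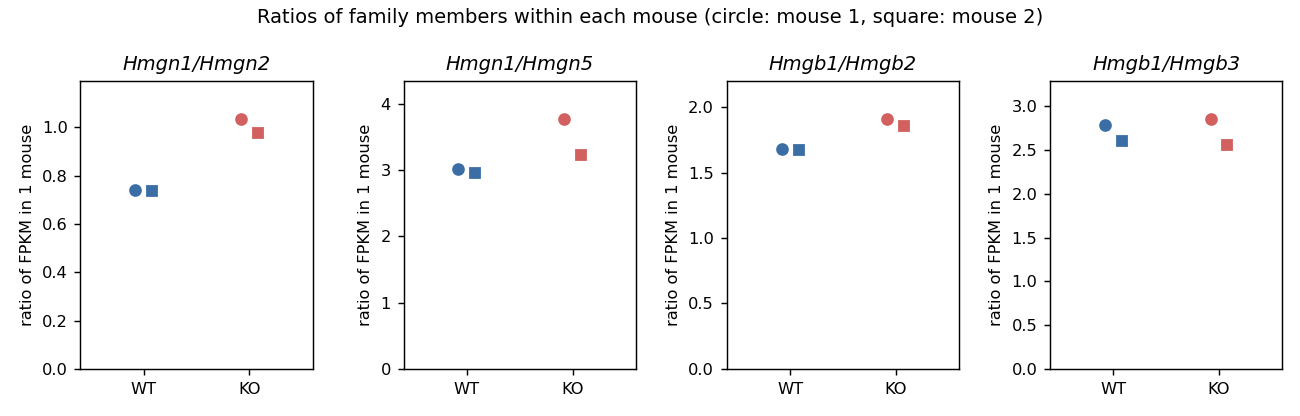
Ratios of the FPKM of 2 family members within each mouse (y axis, linear, from 0), Lgr5-CREPTWT in blue and Lgr5-CREPTKO in red, circles for mouse 1 and squares for mouse 2. Hmgn1 to Hmgn2 goes from 0.741 and 0.737 to 1.04 and 0.978, and Hmgb1 to Hmgb3 overlaps between the genotypes.

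Hmga1, on chromosome 17 from 27556574 to 27563672, was the most abundant member in every mouse. It was 431.1 and 496.6 FPKM in the Lgr5-CREPTWT mice and 453.4 and 500.9 FPKM in the Lgr5-CREPTKO mice. The values interleaved, and the spread between control mice was the widest of the members on the FPKM scale. The log2 fold change was 0.043 with an interval from -0.22 to 0.31 (adjusted p = 0.842, limma), so a change of either sign within that interval could not be told apart from none. Without control mouse 1 the log2 fold change was -0.059, and without Lgr5-CREPTKO mouse 2 it was -0.029. Hmga2, the other HMGA gene, was between 7.10 and 8.16 FPKM in the 4 mice.

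Ordered by level, the control mice gave Hmga1, Hmgn2, Hmgb1, Hmgn1, Hmgb2, Hmgb3, Hmgn5 and Hmgn3, and no neighbours in that order overlapped between these 2 mice. In the Lgr5-CREPTKO mice both Hmgb1 values were above both Hmgn2 values, and the values of Hmgn1 lay between both values of Hmgn2. All other neighbours kept their order and did not overlap. Among all genes of a library, Hmgn2 ranked 238 and 250 from the top in the Lgr5-CREPTWT mice and 329 and 322 in the Lgr5-CREPTKO mice, while Hmga1 ranked between 126 and 153. The 8 members together took between 0.279% and 0.306% of the summed FPKM of a library, 0.297% and 0.306% in the Lgr5-CREPTWT mice and 0.279% and 0.286% in the Lgr5-CREPTKO mice.

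HMG genes have many processed copies in the genome, and reads of a copy cannot always be told from those of the parent gene. Of the 50-base words of each member's transcripts in GENCODE M21, the share that also occurs in another gene was 25.4% for Hmgn2, 25.0% for Hmgb3, 20.4% for Hmgb1, 18.7% for Hmgb2, 18.6% for Hmgn5 and 4.3% for Hmgn1. Hmgb1 shared words with 130 other genes, more than any other member. Of those, Hmgb1-rs17 was between 0.51 and 0.67 FPKM, far below Hmgb1. Exons of Hmgb1 overlap those of Uspl1 on the opposite strand and those of Mm2pr, a non-coding gene, on the same strand. Exons of Hmga1 overlap those of AI413582 and Gm49774 on the opposite strand. The part that these copies and neighbours had in the values was not tested.

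**Figure D4:**
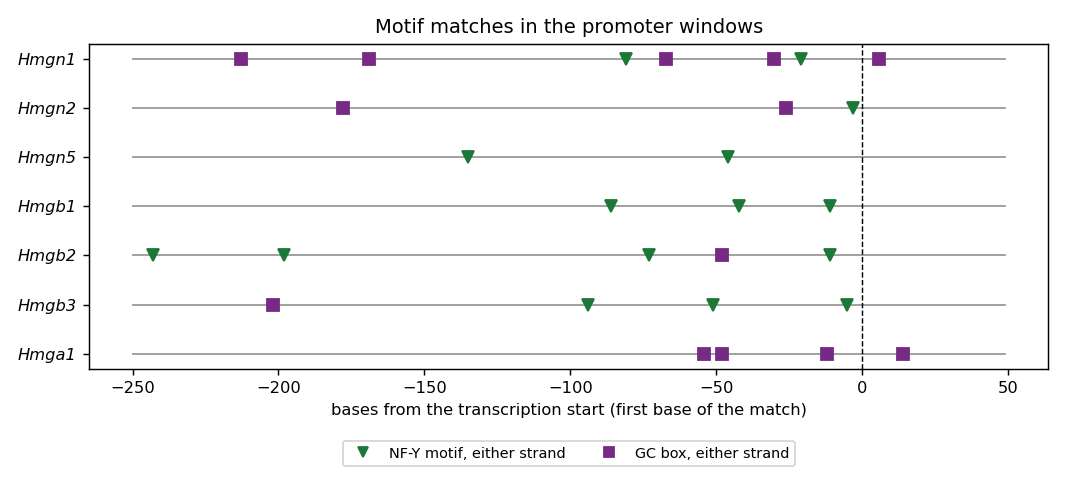
Matches to the NF-Y motif (CCAAT, green triangles) and to the GC box (GGGCGG, purple squares), both strands, by distance in bases from the transcription start, in the first RefSeq promoter window of 7 members. Hmgb2 has 4 NF-Y matches and Hmga1 has none.

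The promoters were compared over windows of 300 bases, from 250 before to 50 after the start, searched on both strands. CCAAT occurred in 6 of the 7 members with a window (all but Hmga1) and in 37.4% of all 32851 windows. The GC box GGGCGG occurred in 6 of the 7 (all but Hmgn5, and in Hmgb1 only in a second window) and in 35.7% of all windows. A member with a second window counted if either matched, whereas the shares over all are of single windows. In the 250 bases before the start, GC content was 58.0% to 78.8% in the members, and the median of all windows was 52.4%. The part of GC content in these matches was not tested. No letters of one motif were masked for another, so matches may overlap. The TATA box (TATAAA), found in 13.6% of windows, the E2F motif (TTTGGCGC, TTTCGCGC, TTTCCCGC or TTTGCCGC), found in 2.26%, and the motif of the TCF and LEF factors (CTTTGAA or CTTTGAT), found in 8.65%, had 0 matches in the members. These are matches of letters, and no binding was measured in these cells. Hmgn3 has no entry among the sequences used here.

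Genes related to the members by domain or by function were taken from lists that leave out the members. Of the other HMG and HMG-box chromatin genes, 17 were tested and 0 were past limma's threshold in either direction (unadjusted, 1 lower and 1 higher), and the median log2 fold change was 0.10. Ssrp1, the HMG-box subunit of the histone chaperone FACT, was 107.4 and 103.3 FPKM in the Lgr5-CREPTWT mice and 114.2 and 111.4 FPKM in the Lgr5-CREPTKO mice. Ubtf, an HMG-box factor of ribosomal RNA transcription, was 46.1 and 48.1 against 50.5 and 52.6 FPKM. Smarce1, a subunit of SWI/SNF remodellers, was 44.6 and 47.8 against 39.7 and 41.4 FPKM. Of the sequence-specific HMG-box factors (SOX, TCF and LEF), 7 passed the filter and 0 the threshold (unadjusted, 0 lower and 1 higher), and their median was 0.16. Sox9, a factor of crypt cells, was between 39.7 and 42.4 FPKM in all mice.

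Linker histones, which share the nucleosome with HMGN proteins, gave 7 genes tested, 0 past the threshold and 1 higher at an unadjusted p below 0.05. H1f0 was 142.9 and 147.7 FPKM in the Lgr5-CREPTWT mice and 135.4 and 129.4 FPKM in the Lgr5-CREPTKO mice (log2 fold change -0.13, adjusted p = 0.297, limma). Hist1h1c was 15.7 and 18.6 against 24.0 and 21.5 FPKM (log2 fold change 0.40, adjusted p = 0.126, limma). Of the 24 histone chaperones, 12 were lower in mean, 12 were higher and 0 were past the threshold (unadjusted, 2 lower and 1 higher). Npm1, the most abundant of them, was 793.9 and 826.9 FPKM against 787.5 and 756.4 FPKM.

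Set, Anp32a, Apex1, Nme1 and Trex1 encode the SET complex, in which HMGB2 takes part. All 5 were tested, 4 were lower in mean and 0 were past the threshold (1 lower unadjusted). Anp32a was 107.7 and 110.9 FPKM in the Lgr5-CREPTWT mice and 102.1 and 87.5 FPKM in the Lgr5-CREPTKO mice (log2 fold change -0.21, adjusted p = 0.259, limma). Nme1 was 102.7 and 110.2 against 98.5 and 81.8 FPKM (log2 fold change -0.24, adjusted p = 0.255, limma). Set, the one gene of the 5 that was higher in mean, was 191.8 and 180.3 against 198.0 and 201.7 FPKM. On FPKM as deposited, both Lgr5-CREPTKO values were below both Lgr5-CREPTWT values in 3 of the 5, and above in 1. These patterns were found in 31.0% and 25.6% of all genes tested. Of 10 genes for receptors and partners of HMGB1 outside the cell, 3 passed the filter and 0 passed the threshold (1 lower unadjusted). That gene, Cd24a, was the most abundant, with 247 and 263 FPKM in the Lgr5-CREPTWT mice and 226 and 205 FPKM in the Lgr5-CREPTKO mice (log2 fold change -0.25, adjusted p = 0.161, limma). Of the classical receptors, Tlr2 was between 3.11 and 4.73 FPKM and Ager between 1.23 and 1.97 FPKM. Of 14 enzymes known to modify HMG proteins, 0 passed in either direction (0 lower and 2 higher unadjusted), and the median log2 fold change was 0.04. Csnk2b, the regulatory subunit of casein kinase 2, was 119.2 and 131.2 against 115.5 and 118.1 FPKM.

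Genes of dividing cells were read against all genes tested, of which 52.3% were lower in mean and 47.7% higher. Of 40 such genes, 27 were lower and 13 higher, their median was -0.15 on the log2 scale, and 0 passed limma's threshold in either direction (unadjusted, 8 lower and 0 higher). A count of 8 among 40 is near the 15.2% of all genes that were lower without adjustment, while 0 were higher against 9.27%. These shares are on FPKM as deposited. After rescaling every library to the same sum, more of all genes were higher (1960) than lower (1409) without adjustment. Against 31.0% of all genes with both Lgr5-CREPTKO values below both Lgr5-CREPTWT values, and 25.6% above, these 40 gave 17 and 4. Their summed level was 2990 and 2764 FPKM in the Lgr5-CREPTWT mice and 2759 and 2604 FPKM in the Lgr5-CREPTKO mice, and the lowest control sum was close to the highest Lgr5-CREPTKO sum. H2afz, a histone variant gene, was 392.0 and 377.0 against 327.0 and 319.4 FPKM (log2 fold change -0.25, adjusted p = 0.116, limma), and Stmn1 was 449.4 and 435.6 against 441.8 and 405.7 FPKM. The part of proliferation in the levels of Hmgn2 and Hmgb2 was not tested. Of 10 stem cell genes 9 were higher in mean and 0 were past the threshold (0 lower and 4 higher unadjusted), with a median of 0.15. Paneth cell genes summed to 1445 and 1063 FPKM in the Lgr5-CREPTWT mice and to 855.7 and 2618 FPKM in the Lgr5-CREPTKO mice, a wide spread within the latter, with 0 past the threshold (0 in either direction unadjusted). Enterocyte genes summed to between 465.2 and 765.1 FPKM, immune cell genes to between 7.18 and 18.4 FPKM and stromal genes to between 0.73 and 1.52 FPKM, with 0 past the threshold in each (1, 1 and 0 unadjusted, all lower).

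The genes whose pattern over the 4 mice was nearest to a member were found by the Euclidean distance between centred log2 values, among 6890 other genes that averaged 10 FPKM or more. For Hmgn2 they were Deb1 (distance 0.0190), Atp5k (0.0355) and Ppil2 (0.0430). Atp5k, which encodes a subunit of mitochondrial ATP synthase, was at a level like that of Hmgn2, with 214.3 and 218.0 FPKM in the Lgr5-CREPTWT mice and 149.7 and 155.6 FPKM in the Lgr5-CREPTKO mice. For Hmgn3 they were Smim6 (0.0795), Coa4 (0.10) and Tspan1 (0.113). With 4 mice these distances are a description only.

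**Figure D5:**
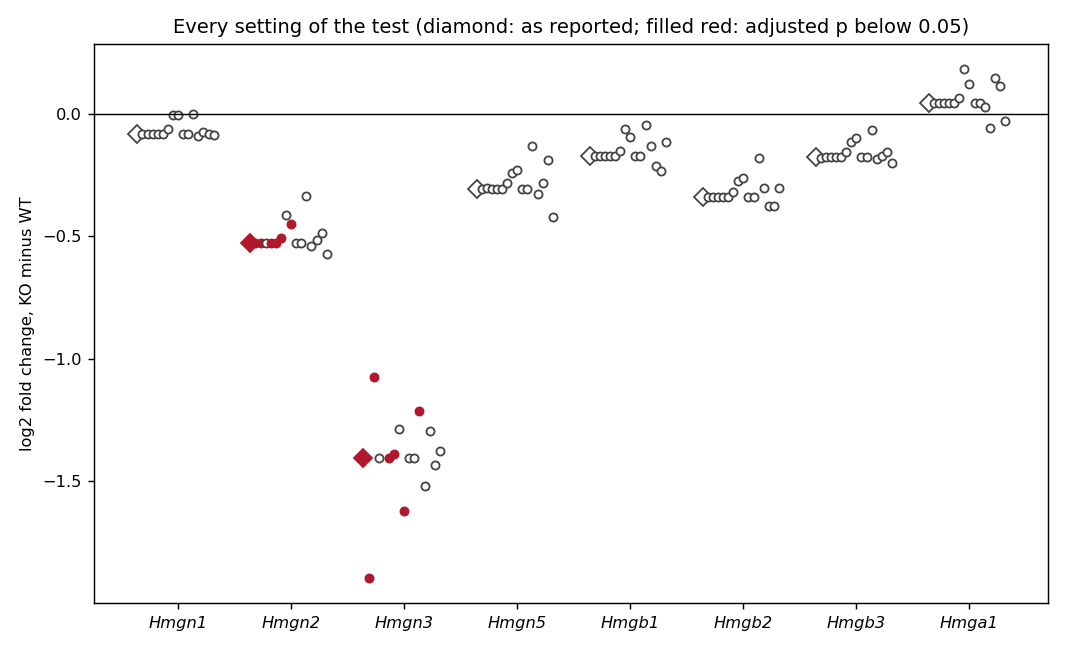
Log2 fold change of each member (y axis) as reported (diamond) and under each alternative setting (circles), filled red where the adjusted p was below 0.05. The diamonds and circles of Hmgn1, Hmgn2, Hmgn3, Hmgn5, Hmgb1, Hmgb2 and Hmgb3 all lie below 0, and those of Hmga1 lie on both sides.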

How the data were processed

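RNA from Lgr5-GFP high cells of 2 Lgr5-CREPTWT and 2 Lgr5-CREPTKO mice was sequenced on a BGISEQ platform. The authors deposited FPKM values, 1 column per mouse and rounded, which are scaled to transcript length and to the total of each library. By the study's methods, whose text on RNA-seq does not speak of the sorted cells, reads were mapped to GRCm38.p6 transcripts with Bowtie2 and quantified with RSEM. The submitters' processing notes also name HISAT and mm10. Versions, read length and strand were not given in the sources used here.

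Columns were matched to samples by title. Genes averaging 0.5 FPKM or more were compared on log2(FPKM + 0.5) by limma 3.58.1 in R 4.3.3 (intensity trend, Benjamini-Hochberg adjustment). The study used a count model, which needs counts, at an adjusted p of 0.05 with a minimum fold change. Only the p threshold was used here. The script was tested on simulated data. Members and lists were chosen with earlier results of these data known. Named genes were the members, list genes past the threshold, up to 3 others of highest level per list, and the 3 nearest patterns of each member called. The lists held other HMG and HMG-box genes, linker histones, histone chaperones, HMGB receptors, the SET complex, modifying enzymes, and markers of cycling, stem, enteroendocrine, goblet, Paneth, tuft, enterocyte, immune and stromal cells. RefSeq on GRCm38.p6 gave coordinates and promoters, found for 7 of 8 members, and GENCODE M21 gave transcripts, read with Python 3.11.15, pandas 2.3.3 and scipy 1.17.1. The pseudocount, filter, small RNA genes, scaling, trend, replicate block and each mouse were varied as planned, and a length and GC correction was added after seeing the data. Same-numbered mice are different animals. One further comparison is not reported here.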

Additional observations from a re-analysis of the deposited data

How the results depend on the processing

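Of the 8 members, 2 were lower past the threshold (Hmgn2 and Hmgn3), and the same 2 were so with a pseudocount of 0.1 or 1, without small RNA genes, and under median-ratio scaling or rescaling to one sum. The number was 1 with a mean of at least 5 FPKM, which removes Hmgn3, and 1 after the length and GC correction, which kept Hmgn3. It was 0 without a filter, with quantile normalisation, without the intensity trend, with the replicate block, and without any one mouse (0 to 0), where each left-out mouse ended both calls and the lone mouse was assumed to vary like the others. At an unadjusted p below 0.05, between 3 and 5 members were lower and 0 higher in the settings that kept every mouse. Over all genes tested, that threshold gave 1916 lower and 1170 higher as reported. It gave 1544 and 1571 with quantile normalisation, and 1409 and 1960 after rescaling to one sum, with 3 members lower in each. The numbers of the mice are not a pairing (correlation of same-numbered deviations -0.027 across genes). Over all genes, 337 were lower and 52 higher, and these became 447 and 116 with a mean of at least 5 FPKM, 508 and 115 without small RNA genes, 168 and 15 with the block, 4 and 0 without the trend, and 0 and 0 without a filter or any one mouse (1179 to 2250 lower and 635 to 1320 higher unadjusted). Without the filter the smallest adjusted p was 0.105. In the 15 alternatives the log2 fold changes of 7 members stayed negative. That of Hmga1 was between -0.059 (without Lgr5-CREPTWT mouse 1) and 0.14 when a mouse was left out, and was -0.029 without Lgr5-CREPTKO mouse 2. The cause of these losses was not tested. With 2 mice per genotype and no counts, small differences cannot be resolved.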
